A study of Homo sapiens with 6 samples.

Results

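The fatty acid genes examined here are 48 genes for the synthesis, desaturation, elongation, activation, oxidation and storage of fatty acids, taken by symbol from the 58395 genes in the count tables. They were measured in 6 clonal lines of HEK293, an established line of human embryonic kidney origin. GST lines 2, 8 and 9 overexpressed glutathione S-transferase as GST-3F, the control protein, and NOCT lines 4, 11 and 12 overexpressed NOCT ∆(2-15)-3F, nocturnin without residues 2 to 15 and with the same 3F tag. Each line grew for 3 days in 2 dishes of 10 cm in DMEM with 10% FBS, and total RNA whose integrity was scored by RIN at 9.6 to 10.0, was depleted of ribosomal RNA and read as 50 bp strand-specific reads. Each library is 1 clone, so the spread within a group is the spread between clones, and the effect of the expressed protein and that of the 3 clones picked for it are separated only as far as 3 clones allow.

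Fatty acids are built in the cytosol from acetyl-CoA by ATP citrate lyase, acetyl-CoA carboxylase and fatty acid synthase, then desaturated and elongated in the endoplasmic reticulum. To be used they are joined to coenzyme A, and are then stored as triglyceride in lipid droplets or carried by the carnitine shuttle into mitochondria, where the chain is shortened by rounds of beta-oxidation. PPAR receptors are nuclear receptors that bind fatty acids and control many of these genes. Nocturnin is a phosphatase of the dinucleotides NADP and NADPH, and mice that lack it are known for resistance to fat accumulation on a high-fat diet.

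The libraries held 19729745 to 24422406 reads in genes and 26140 to 27682 detected genes. The GST construct had 88, 46 and 50 reads in GST lines 2, 8 and 9 and 1, 0 and 0 in NOCT lines 4, 11 and 12, while the NOCT construct had 4, 7 and 3 against 74, 46 and 82, so both followed the labels. Reads of the NOCT gene itself numbered 58, 55 and 65 in the GST lines and 53, 38 and 46 in the NOCT lines. TPM is a level scaled for gene length and library depth, and MT-RNR2, a ribosomal RNA of mitochondria, accounted for 43.0% to 47.7% of it, so TPM values of all other genes are compressed and move with its share. All 10 markers of HEK293 cells passed 1 TPM in at least 1 line, with a summed level of 532 to 745 TPM in the GST lines and 645 to 1202 TPM in the NOCT lines. Of the 9 of them tested, 5 had an unadjusted p under 0.05 by edgeR, where 13.9% of all genes tested did. Of these, 4 were higher and 1 was lower in the NOCT lines. The median log2 fold change of the 9 markers was 0.51, and none of them passed the adjusted threshold. Their part in the results below was not tested. All 6 hepatocyte markers and all 6 macrophage markers stayed below 1 TPM in every line, as did 4 of 6 adipocyte, 4 of 5 endothelial and 4 of 6 fibroblast markers. The summed adipocyte markers reached 1.38 to 1.83 TPM in the GST lines and 1.53 to 4.22 TPM in the NOCT lines, with the leptin gene LEP at 0 throughout. Those of fibroblasts reached 3.52 to 3.88 and 2.49 to 8.94 TPM, with COL1A2 at 0. In bulk RNA, fewer cells with a transcript and less of it per cell cannot be told apart.

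The most abundant genes were enzymes of synthesis, desaturation, elongation and oxidation, while the uptake gene CD36 was near 0 in all 6 lines. Across the 48 genes the mean TPM over the lines was highest for SCD, ACLY, FASN, ELOVL5 and ECHS1 and lowest for CD36, ACSL5, DGAT2, CPT1C and ACSL6. Together the genes held 1832 to 2159 TPM per line, 0.183% to 0.216% of the total, from 83798 to 92533 reads. Between the lines, ECHS1 was the steadiest by the ratio of its highest to its lowest TPM (1.13), followed by ECI2 (1.17), and DECR1 was the most variable (74.8).

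**Figure D1:**
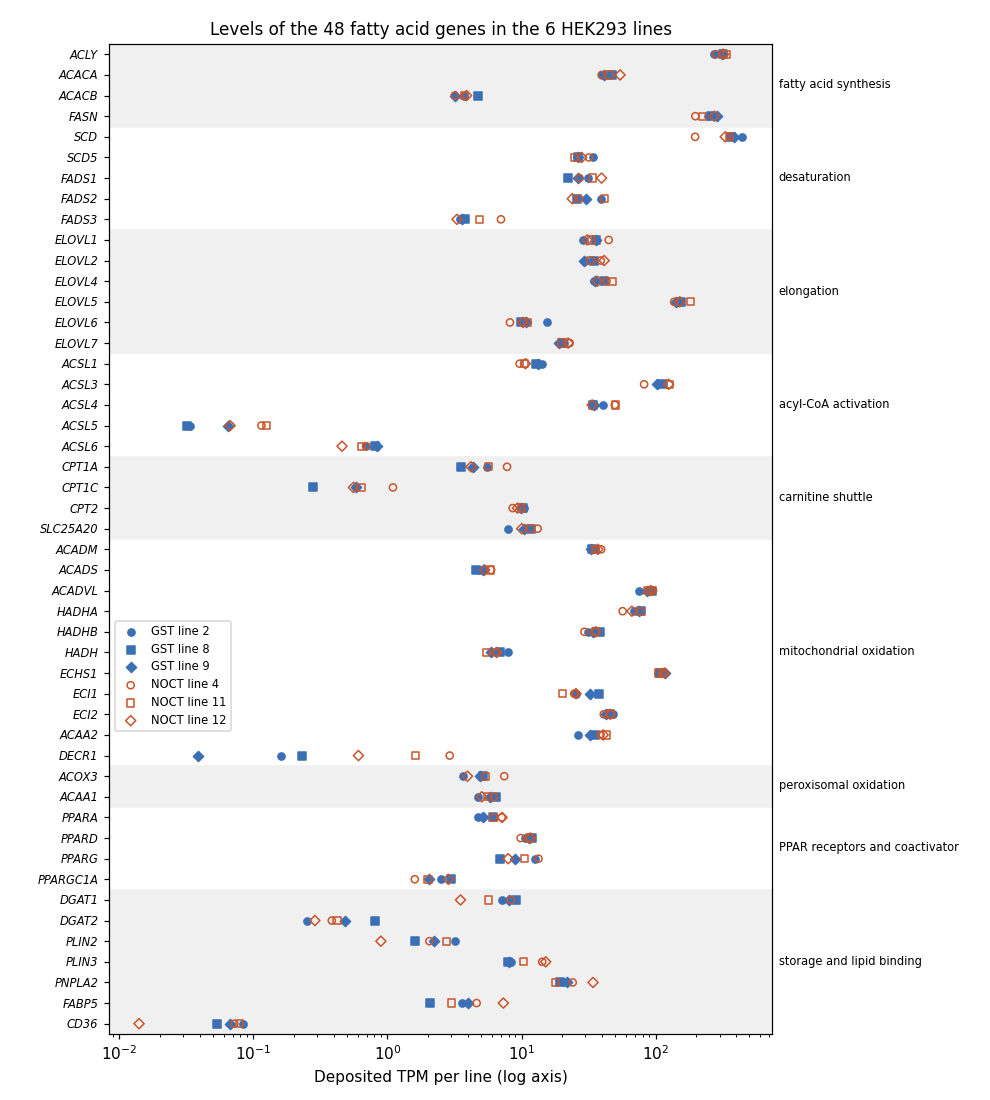
TPM of each of the 48 genes in each of the 6 lines, on a log axis, with genes grouped by role, filled symbols for GST lines and open symbols for NOCT lines. For most genes the symbols lie close together and the groups overlap, and DECR1 is the gene whose groups lie farthest apart.

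Whether expression of NOCT ∆(2-15)-3F changed these genes was asked by comparing the NOCT with the GST lines, with fold changes given as NOCT relative to GST. Of the 48 genes, 46 passed the filter on low counts, and none of the 46 passed the adjusted threshold of 0.05 in edgeR's quasi-likelihood test, where 10 of 17261 genes (0.0579%) did. The gene nearest to it was DECR1, a mitochondrial reductase for unsaturated fatty acids, which was almost silent in the GST lines and detected in all 3 NOCT lines. At an unadjusted p under 0.05 there were 5 genes, which is 10.9% against 13.9% of all genes tested. DECR1, PLIN3 and ACAA2 were the 3 with higher values in the NOCT lines (6.52%, against 7.38% of all genes), and ACSL1 and ECI1 the 2 with lower values (4.35%, against 6.52%). Groups that did not overlap in scaled counts were found for 9 genes (19.6%), against 20.0% of all genes tested, with 4 higher in the NOCT lines (8.70%, against 10.5%) and 5 lower (10.9%, against 9.54%). The median log2 fold change was -0.02 over the 46 genes and 0.00 over all genes, and its median size was 0.21 and 0.20. By each of these counts, the share among the fatty acid genes was near or below that of all genes.

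In the authors' deposited table, 1 of the 46 genes with an adjusted p, DECR1, passed 0.05, against 2.87% of all genes there with an adjusted p. Its log2 fold change in the authors' deposited table, a shrunken estimate per the table's name, was 1.00, with an adjusted p of 4.82e-04. ACSL1, ECI1 and PLIN3 followed in the authors' deposited table with adjusted p-values of 0.0741, 0.0916 and 0.0984. DESeq2 run here on the deposited counts, without shrinkage, gave DECR1 a log2 fold change of 3.47 and called it and no other of the 46, against 3.41% of all genes, so the number called depends on the tool. Without a filter on low counts edgeR called DECR1 and SCD, against 2.57% of all genes, and without NOCT line 12 it called DECR1, against 5.17%.

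**Figure D2:**
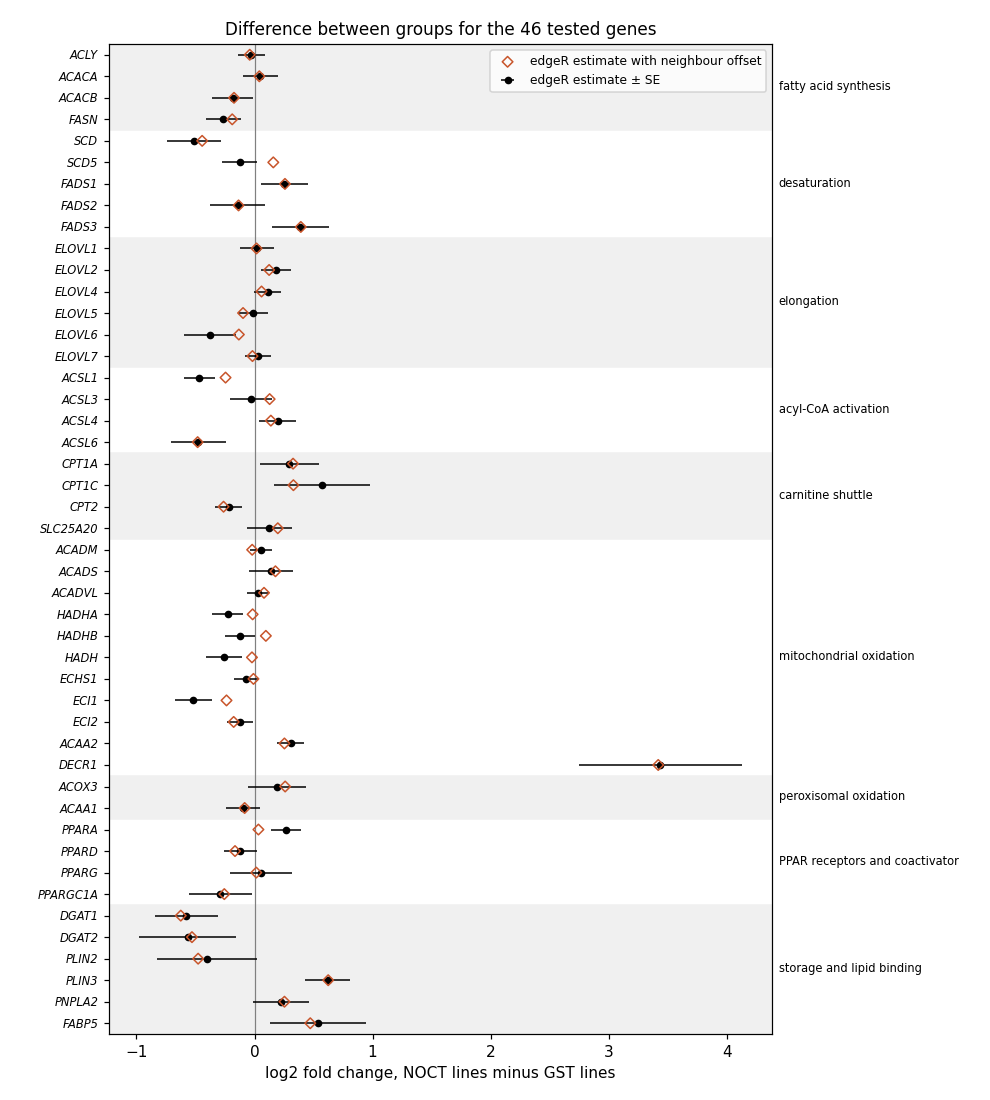
Log2 fold change (NOCT minus GST lines) of the 46 tested genes by role, as the edgeR estimate ± SE (black) and as the estimate with an offset for neighbouring genes (open diamonds). Most estimates lie between -0.6 and 0.6. The errors of many reach 0, while those of others, ACSL1, ECI1, PLIN3 and ACAA2 among them, do not. DECR1 stands at 3.44, and the diamonds of SCD5, ELOVL6, ACSL1, ACSL3, HADHA, HADHB, HADH, ECI1, CPT1C and PPARA lie away from their black points.

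Among the genes of synthesis, no change was detected. ACLY, which makes cytosolic acetyl-CoA from citrate, was the most abundant, at 271, 317 and 315 TPM in GST lines 2, 8 and 9 and 281, 336 and 321 TPM in NOCT lines 4, 11 and 12. Its groups overlapped fully, with a log2 fold change of -0.03 (95% interval -0.28 to 0.23). FASN, the synthase that builds palmitate, was at 247, 259 and 285 TPM against 198, 224 and 274 TPM. The lowest FASN levels were those of NOCT lines 4 and 11, while NOCT line 12 lay inside the GST range, and the log2 fold change was -0.26 ± 0.15 (SE, adjusted p = 0.480 by edgeR). Of the acetyl-CoA carboxylases, ACACA, the cytosolic form, held 91.7% ± 0.978 of their summed TPM in the GST lines and 92.7% ± 0.525 in the NOCT lines (SD, n = 3). ACACB, the form at the mitochondrial surface whose product restrains fatty acid entry, was the least abundant of the 4 genes, at 3.73, 4.71 and 3.20 TPM against 3.18, 3.75 and 3.89 TPM. Its fold change interval, -0.58 to 0.21 on the log2 scale, included 0.

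SCD, the stearoyl-CoA desaturase that makes oleate, was the most abundant of the 48 genes, and its levels were lower in every NOCT line than in every GST line. It was at 441, 368 and 386 TPM in GST lines 2, 8 and 9 and at 197, 356 and 330 TPM in NOCT lines 4, 11 and 12. NOCT line 4 was far below the rest, and NOCT line 11 lay just under GST line 8. The mean was 398 ± 38.2 TPM in the GST lines and 294 ± 85.2 TPM in the NOCT lines (SD, n = 3). The log2 fold change of SCD, -0.52 ± 0.23 (SE), had an unadjusted p of 0.0537 and an adjusted p of 0.368 by edgeR. Without NOCT line 4 the log2 fold change was -0.28, and without any filter on low counts SCD passed the threshold with an adjusted p of 0.0371, where its adjusted p ranged from 0.0371 to 0.657 over the alternatives. SCD5, the second human desaturase of this kind, was at 33.9, 26.4 and 26.5 TPM against 31.8, 24.9 and 28.1 TPM. SCD5 levels overlapped between groups, and the share of SCD in the sum of both was 86.1% in NOCT line 4 and 92.2% to 93.6% in the other 5 lines.

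To show what lies ahead of the pair of desaturase genes, the stretches of their RefSeq promoters (GRCh38.p14) upstream of any annotated exon are printed, 5′ to 3′ on the strand of the gene. That of SCD is 141 bases at chr10:100346983-100347123 on the plus strand, and that of SCD5 is 189 bases at chr4:82798858-82799046 on the minus strand. Capitals mark CCAAT boxes (CCAAT, or ATTGG on the other strand) and GC boxes (GGGCGG, or CCGCCC on the other strand).
SCD: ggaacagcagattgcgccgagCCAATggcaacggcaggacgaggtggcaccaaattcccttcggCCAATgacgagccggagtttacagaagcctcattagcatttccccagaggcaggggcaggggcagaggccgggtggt
SCD5: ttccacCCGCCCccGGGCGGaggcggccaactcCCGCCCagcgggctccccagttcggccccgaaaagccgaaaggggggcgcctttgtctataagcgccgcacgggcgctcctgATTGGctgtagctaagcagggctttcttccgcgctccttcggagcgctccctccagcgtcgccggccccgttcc
SCD held a pair of CCAAT boxes in this stretch, while its 2 GC boxes lie outside it, closer to the start site. SCD5 held 1 CCAAT box and 3 of its 4 GC boxes. RefSeq promoters matched 42 of the 48 genes. FASN, DECR1, DGAT1, DGAT2, FABP5 and ACAA1 had no entry. In the 250 bases before the start site, searched on both strands, a GC box was found in 31 of the 42 genes (73.8%) and in 42.3% of all 27305 promoters. The CCAAT box was found in 13 (31.0%, against 33.0%) and the E-box CACGTG in 4 (9.52%, against 6.49%), namely ELOVL4, ELOVL5, PLIN2 and PPARGC1A. The sterol regulatory motif TCACNCCAC was found in PNPLA2 alone among the 42, and in 0.875% of all promoters. The direct repeat bound by PPAR receptors, AGGTCA and AGGTCA with 1 base of any kind between them, was found in none of the 42 and in 0.0183% of all promoters. TATAAA was found in 3 (7.14%, against 11.1%), namely ACADVL, CD36 and PLIN2. These matches describe letters in 1 window per gene. The 27305 promoters were not limited to genes expressed in these lines, as most of the 42 are. Whether the GC box share is particular to fatty acid genes was therefore not tested. The overlaps between motifs were not removed.

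The front-end desaturases FADS1 and FADS2, which act in the making of polyunsaturated fatty acids, sit next to each other on chromosome 11, and the relation of their levels differed in 1 line. FADS1 was at 31.2, 22.3 and 26.2 TPM in the GST lines and at 27.0, 34.0 and 39.5 TPM in NOCT lines 4, 11 and 12. FADS2 was at 38.9, 26.1 and 30.2 TPM against 26.9, 41.3 and 23.9 TPM. NOCT line 12 had the highest FADS1 and the lowest FADS2 of all lines. Of the summed TPM of the 3 FADS genes, FADS1 held 59.2% in NOCT line 12 and 42.4% to 44.4% in the other 5 lines. FADS3, the least abundant desaturase, was at 3.47, 3.78 and 3.61 TPM against 7.03, 4.87 and 3.30 TPM, with the highest value in NOCT line 4 and the lowest in NOCT line 12. The log2 fold changes of FADS1, FADS2 and FADS3 were 0.25, -0.14 and 0.39, with adjusted p-values of 0.610, 0.818 and 0.515 by edgeR. Single lines weighed on these values, since FADS3 was at 0.11 without NOCT line 4 and FADS1 at 0.077 without NOCT line 12, and FADS2 turned to 0.063 without GST line 2. RefSeq places the start sites of FADS1 and FADS2 800 bases apart on opposite strands, and their annotated gene bodies overlap, so reads from the shared stretch can be told apart only by strand.

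Elongases, which add carbons in pairs to the chain, gave a median log2 fold change of 0.02 over 6 genes. ELOVL5, which elongates polyunsaturated chains, was the most abundant, at 152, 154 and 143 TPM against 138, 183 and 152 TPM. Its interval of -0.30 to 0.28 on the log2 scale lay evenly about 0, and it held 52.8% ± 1.07 of the summed elongase TPM in the GST lines and 51.4% ± 4.71 in the NOCT lines (SD, n = 3). ELOVL6, which extends palmitate, was the least abundant, at 15.4, 9.92 and 10.8 TPM against 8.20, 11.1 and 10.3 TPM. GST line 2 was the highest and NOCT line 4 the lowest, with the other 4 lines between 9.92 and 11.1 TPM. For ELOVL6 the log2 fold change was -0.38 ± 0.22 (SE, adjusted p = 0.484 by edgeR). It was -0.13 both without GST line 2 and with an offset for neighbouring genes. ELOVL1, ELOVL2, ELOVL4 and ELOVL7 had log2 fold changes of 0.02, 0.18, 0.11 and 0.03.

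Among the long-chain acyl-CoA synthetases, which join fatty acids to coenzyme A, the levels of ACSL1 were lower in every NOCT line. ACSL1 was at 14.3, 12.8 and 13.2 TPM in GST lines 2, 8 and 9 and at 9.68, 10.5 and 10.7 TPM in NOCT lines 4, 11 and 12. The groups were well apart, with means of 13.4 ± 0.783 and 10.3 ± 0.539 TPM (SD, n = 3). The ACSL1 log2 fold change of -0.47 ± 0.13 (SE, interval -0.77 to -0.17) had an unadjusted p of 0.00665 and an adjusted p of 0.203 by edgeR. With the offset for neighbouring genes, given after the roles, it was -0.25. The share of ACSL1 in the summed ACSL TPM was 7.91% to 8.81% in the GST lines and 5.56% to 6.80% in the NOCT lines. ACSL3, the form of the endoplasmic reticulum and lipid droplets, was the most abundant, at 107, 114 and 103 TPM against 82.1, 127 and 125 TPM. NOCT line 4 was the lowest and NOCT lines 11 and 12 the highest, so that the mean differed little (log2 fold change -0.03). ACSL4, which prefers arachidonate, was at 40.4, 34.2 and 34.7 TPM against 49.6, 50.5 and 33.7 TPM. ACSL6, a form of the brain, was at 0.697, 0.810 and 0.839 TPM against 0.692, 0.644 and 0.458 TPM. Its groups did not overlap, and its log2 fold change was -0.48 ± 0.23 (SE, adjusted p = 0.406 by edgeR). ACSL5, the form of the intestine and liver, had 1, 1 and 2 reads in the GST lines and 4, 4 and 2 in the NOCT lines and was not tested.

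The upstream stretch of the ACSL1 promoter outside annotated exons, 99 bases at chr4:184826120-184826218 on the minus strand, is printed because ACSL1 had the smallest unadjusted p after DECR1. Capitals mark GC boxes as above.
ACSL1: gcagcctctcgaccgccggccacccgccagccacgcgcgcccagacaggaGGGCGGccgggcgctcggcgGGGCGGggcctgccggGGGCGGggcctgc
The ACSL1 stretch held 3 of the 6 GC boxes found in the 250 bases before its start site, and no CCAAT box was found there.

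In the carnitine shuttle, no change was detected. CPT2, the carnitine transferase of the inner mitochondrial membrane, was at 10.4, 10.3 and 9.90 TPM against 8.59, 9.97 and 9.32 TPM. The scaled counts of its groups did not overlap, and the log2 fold change was -0.22 ± 0.11 (SE, adjusted p = 0.433 by edgeR). SLC25A20, the carrier that exchanges acylcarnitine for carnitine, was the most abundant of the shuttle genes, at 7.94, 11.8 and 10.5 TPM against 13.2, 11.7 and 10.0 TPM. CPT1A, the rate-limiting transferase of the outer membrane, was at 5.51, 3.54 and 4.35 TPM against 7.80, 5.67 and 4.20 TPM. NOCT line 4 was the highest for both SLC25A20 and CPT1A, and NOCT line 12 lay within the range of the GST lines. CPT1C, the form of neurons, was the least abundant, at 0.580, 0.276 and 0.582 TPM against 1.10, 0.635 and 0.557 TPM.

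Of the 11 genes of mitochondrial oxidation, 3 had an unadjusted p under 0.05 by edgeR, where 13.9% of all genes tested did. With 11 genes, this count cannot be read as a trait of the role. The largest difference of all 48 genes was that of DECR1. DECR1 encodes 2,4-dienoyl-CoA reductase, which prepares polyunsaturated fatty acids for beta-oxidation, and lies at chr8:90001405-90052092 on the plus strand. It had 4, 6 and 1 reads in GST lines 2, 8 and 9 and 84, 43 and 15 reads in NOCT lines 4, 11 and 12. Every NOCT line was above every GST line, with a wide range among the NOCT lines. The mean level was 0.144 ± 0.0973 TPM in the GST lines and 1.72 ± 1.16 TPM in the NOCT lines (SD, n = 3), and in scaled counts the ratio was 11.1-fold. On the log2 scale the fold change of DECR1 was 3.44 ± 0.69 (SE, interval 1.85 to 5.03), with an unadjusted p of 0.00104 and an adjusted p of 0.121 by edgeR. An exact two-sided permutation test on 3 lines against 3 cannot go below 0.1, which DECR1 reached, as any gene without overlap does. Without NOCT line 12, the adjusted p was 0.00806 by edgeR and the log2 fold change 3.82. Over all alternatives the adjusted p ranged from 2.91e-05 to 0.567. Even at 2.91 TPM in NOCT line 4, DECR1 was below every other mitochondrial oxidation gene in that line.

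The first 1824 bases of DECR1 overlap NBN, a DNA repair gene on the opposite strand. NBN had 1210, 1196 and 1267 reads in the GST lines and 1691, 1331 and 1059 reads in the NOCT lines. These reads are not scaled for library size, and after scaling the log2 fold change of NBN was -0.02 by edgeR. OSGIN2, which lies beyond NBN, had 395, 406 and 406 reads against 676, 470 and 432 reads (log2 fold change 0.22, adjusted p = 0.511 by edgeR). On the other side, the calbindin gene CALB1 had 11, 7 and 10 reads against 11, 31 and 2 reads (log2 fold change 0.47 ± 0.75, SE). CALB1 was also near absent in the GST lines, while NBN and OSGIN2 were not. The median deviation of the tested genes around DECR1 differed by 0.06 between the group means on the log2 scale. By line it was -0.033, -0.013 and -0.065 in GST lines 2, 8 and 9. In NOCT lines 4, 11 and 12 it was -0.028, -0.071 and 0.15.

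ACAA2, the mitochondrial thiolase that cuts off acetyl-CoA in the last step of a round, was at 26.4, 35.3 and 32.3 TPM in the GST lines and at 38.9, 43.2 and 40.6 TPM in the NOCT lines. All NOCT lines were above all GST lines, with GST line 2 the lowest. Its log2 fold change was 0.30 ± 0.11 (SE, interval 0.04 to 0.57), with an unadjusted p of 0.0272 and an adjusted p of 0.290 by edgeR. ECI1, an isomerase that moves double bonds into a position where oxidation can go on, was at 25.4, 37.5 and 32.7 TPM against 24.7, 20.4 and 25.5 TPM. In CPM (reads relative to the TMM-scaled library size) its GST lines had 30.6, 41.7 and 38.1 and its NOCT lines 25.8, 22.2 and 29.1. The groups did not overlap on that scale, while in TPM GST line 2 and NOCT line 12 were level. Its log2 fold change was -0.52 ± 0.15 (SE, interval -0.87 to -0.16), with an unadjusted p of 0.00990 and an adjusted p of 0.222 by edgeR. With the neighbour offset it was -0.24, with an unadjusted p of 0.0586.

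The stretch of 70 bases before the ECI1 start that lies outside annotated exons, chr16:2251615-2251684 on the minus strand, is shown as that of the oxidation gene with the lowest values in the NOCT lines relative to GST. Capitals mark GC boxes as above.
ECI1: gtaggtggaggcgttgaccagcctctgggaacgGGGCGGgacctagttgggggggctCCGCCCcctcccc
Of the 3 GC boxes before the ECI1 start, 2 lie in the printed stretch. For ACAA2, no GC box and no CCAAT box was found in the 250 bases.

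None of the other genes of mitochondrial beta-oxidation had an unadjusted p under 0.05 by edgeR. ECHS1, the short-chain enoyl-CoA hydratase, was the most abundant, at 105, 107 and 118 TPM against 112, 106 and 116 TPM. The dehydrogenases ACADVL, ACADM and ACADS, which open the round for very long, medium and short chains, had log2 fold changes of 0.03, 0.05 and 0.14. Intervals of -0.18 to 0.24 for ACADVL and -0.16 to 0.27 for ACADM stayed within 0.3 of 0 in both directions. Those of ACADS (-0.29 to 0.57), HADHA (-0.53 to 0.07), HADHB (-0.42 to 0.17) and HADH (-0.60 to 0.09) reached further, so larger differences are not excluded there. HADHA and HADHB encode the subunits of the trifunctional protein and start 307 bases apart in opposite directions on chromosome 2. HADHA was at 68.7, 77.6 and 75.7 TPM against 56.8, 77.2 and 66.5 TPM, and HADHB at 31.1, 38.7 and 34.2 TPM against 29.4, 35.8 and 35.7 TPM. NOCT line 4 had the lowest level of both genes. HADH, the short-chain hydroxyacyl-CoA dehydrogenase, and ECI2, a second isomerase, had log2 fold changes of -0.26 and -0.12. With the neighbour offset HADH was at -0.022 and HADHA at -0.016, and without GST line 2 HADH was at -0.12.

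The peroxisomal genes ACOX3 and ACAA1 were low, and each overlapped between groups. The 14 other peroxisomal genes below summed to 170 to 183 TPM in the GST lines and 176 to 195 in the NOCT lines. Of the 13 of them tested, 4 did not overlap between groups. Over the 117 tested genes of all pathway lists below, 28 (23.9%) did not overlap, against 20.0% of all genes tested. ACOX3, an oxidase of branched chains, was at 3.65, 5.20 and 4.93 TPM against 7.43, 5.36 and 3.95 TPM. ACAA1, the peroxisomal thiolase, was at 4.71, 6.46 and 5.84 TPM against 6.25, 5.56 and 5.06 TPM. Their log2 fold changes were 0.19 and -0.10.

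All PPAR receptor genes were expressed, and none changed detectably. PPARD was the most abundant of the group, at 10.7, 12.0 and 11.3 TPM against 9.85, 11.4 and 11.7 TPM. PPARG, known for its role in adipocytes, varied within both groups, at 12.7, 6.88 and 9.00 TPM against 13.4, 10.6 and 7.95 TPM. PPARA, known for its role in liver oxidation, was at 4.73, 6.15 and 5.18 TPM against 7.11, 6.14 and 7.17 TPM. NOCT lines 4 and 12 were above all GST lines in PPARA and NOCT line 11 was level with GST line 8, with a log2 fold change of 0.26 ± 0.13 (SE, adjusted p = 0.406 by edgeR) that was 0.03 with the neighbour offset. The coactivator gene PPARGC1A, the least abundant of the group, was at 2.49, 2.97 and 2.03 TPM against 1.60, 2.01 and 2.85 TPM.

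In storage and lipid binding, the levels of PLIN3 were higher in every NOCT line and those of DGAT1 were lower in NOCT lines 11 and 12. PLIN3 encodes perilipin 3, a coat protein of nascent lipid droplets found in many cell types. It was at 8.36, 7.97 and 8.06 TPM in GST lines 2, 8 and 9 and at 14.3, 10.4 and 15.1 TPM in NOCT lines 4, 11 and 12. The GST lines were nearly equal, and all NOCT lines lay above them, NOCT line 11 the nearest. The mean was 8.13 ± 0.207 TPM in the GST lines and 13.3 ± 2.55 TPM in the NOCT lines (SD, n = 3), a ratio of 1.54-fold in scaled counts. Its log2 fold change was 0.62 ± 0.19 (SE, interval 0.18 to 1.06), with an unadjusted p of 0.0115 and an adjusted p of 0.230 by edgeR. The neighbour offset left it at 0.62. PLIN2, the perilipin of lipid-loaded cells, was at 3.18, 1.59 and 2.23 TPM against 2.06, 2.75 and 0.894 TPM. In NOCT line 12, with the highest PLIN3 and the lowest PLIN2, PLIN3 held 94.4% of the TPM of the pair, against 72.5% to 87.4% in the other 5 lines.

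The PLIN3 stretch outside annotated exons is 149 bases at chr19:4867769-4867917 on the minus strand, printed as that of the storage gene whose groups did not overlap. Capitals mark GC boxes as above.
PLIN3: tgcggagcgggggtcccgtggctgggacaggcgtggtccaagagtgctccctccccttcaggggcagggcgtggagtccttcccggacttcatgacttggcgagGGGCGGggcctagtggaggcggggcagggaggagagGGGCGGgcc
Both GC boxes before the PLIN3 start lie in the printed stretch, and its 1 CCAAT box lies outside it.

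DGAT1, one of the enzymes of the last step of triglyceride synthesis, was at 7.21, 9.12 and 8.06 TPM against 8.33, 5.63 and 3.51 TPM. NOCT line 4 lay inside the GST range and the other NOCT lines below it. The difference on the log2 scale was -0.58 ± 0.27 (SE, adjusted p = 0.384 by edgeR), and -0.89 without NOCT line 4, with an unadjusted p of 0.00585 and an adjusted p of 0.324 in a range of 0.249 to 0.680 over the alternatives. DGAT2, an enzyme of the same reaction unrelated in sequence, was at 0.251, 0.803 and 0.484 TPM against 0.385, 0.421 and 0.287 TPM. PNPLA2, the lipase that starts triglyceride breakdown, was the most abundant gene of storage, at 20.3, 19.5 and 21.9 TPM against 24.1, 17.9 and 34.1 TPM. NOCT line 12 was the highest and NOCT line 11 the lowest for PNPLA2. FABP5, a fatty acid binding protein, was at 3.62, 2.08 and 4.01 TPM against 4.63, 3.01 and 7.32 TPM, values that are uncertain because the annotation lists 13 FABP5 pseudogenes that can take its reads. It also lists 2 pseudogenes of HADHA and 1 each of SCD, FADS2 and SLC25A20. How many reads any of these pseudogenes took was not tested. CD36, a fatty acid uptake protein, was the least abundant of the 48 genes, with 6, 4 and 5 reads against 6, 6 and 1, and was not tested.

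**Figure D3:**
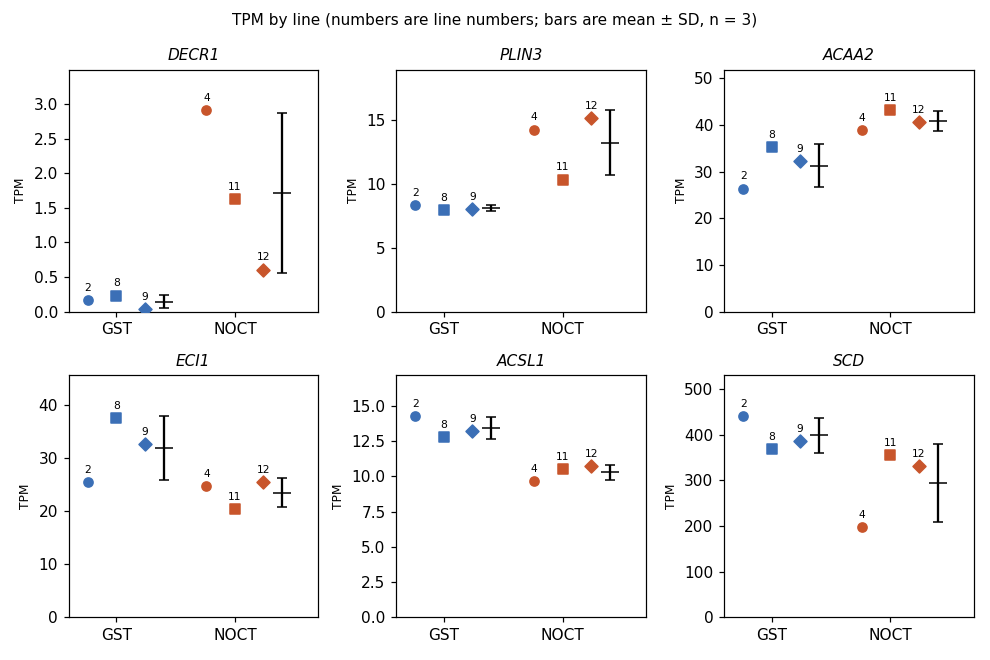
TPM of 6 genes in each GST and NOCT line, with line numbers above the points and mean ± SD (n = 3) as bars, on axes that start at 0. DECR1, PLIN3 and ACAA2 are higher in all NOCT lines, ACSL1 and SCD are lower in all NOCT lines, and NOCT line 4 carries the lowest SCD value.

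Summed by role, TPM differed less between groups than between some lines of a group. Desaturase genes summed to 489 ± 53.2 TPM in the GST lines and 392 ± 90.2 TPM in the NOCT lines (SD, n = 3), with NOCT line 4 at 290 TPM. Storage and lipid-binding genes summed to 43.0 ± 1.83 and 51.8 ± 10.7 TPM, with NOCT line 12 at 61.3 TPM. Mitochondrial oxidation genes summed to 458 ± 27.6 and 463 ± 9.57 TPM, and synthesis genes to 611 ± 43.8 and 594 ± 67.0 TPM. Of the 46 tested genes, 14 (30.4%, against 33.1% of all genes) had a log2 fold change of 0.3 or more in size. It was positive for 22 (47.8%, against 50.7%) and negative for 24 (52.2%, against 49.3%). When the spike-ins set the library sizes, 32 were positive and 14 negative, with a median of 0.13 for the 46 genes and of 0.15 for all genes.

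NOCT line 4 stood apart from the other lines in these genes. It was the highest or the lowest of the 6 lines for 22 of the 46 genes, 7 times the highest and 15 times the lowest. GST line 2 was extreme for 19 of the genes, and the remaining lines for 8 to 16. Over all genes tested NOCT line 4 was extreme in 43.7%, and the other lines in 27.1% to 36.3%, with GST line 2 at 32.8%. NOCT line 4 was thus the line most often extreme over all genes tested as well. How often it was the highest and how often the lowest was not counted apart over all genes. Its median deviation from the mean of the 6 lines, on the log2 scale, was -0.022 over the 46 genes and 0.011 over all genes tested.

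**Figure D4:**
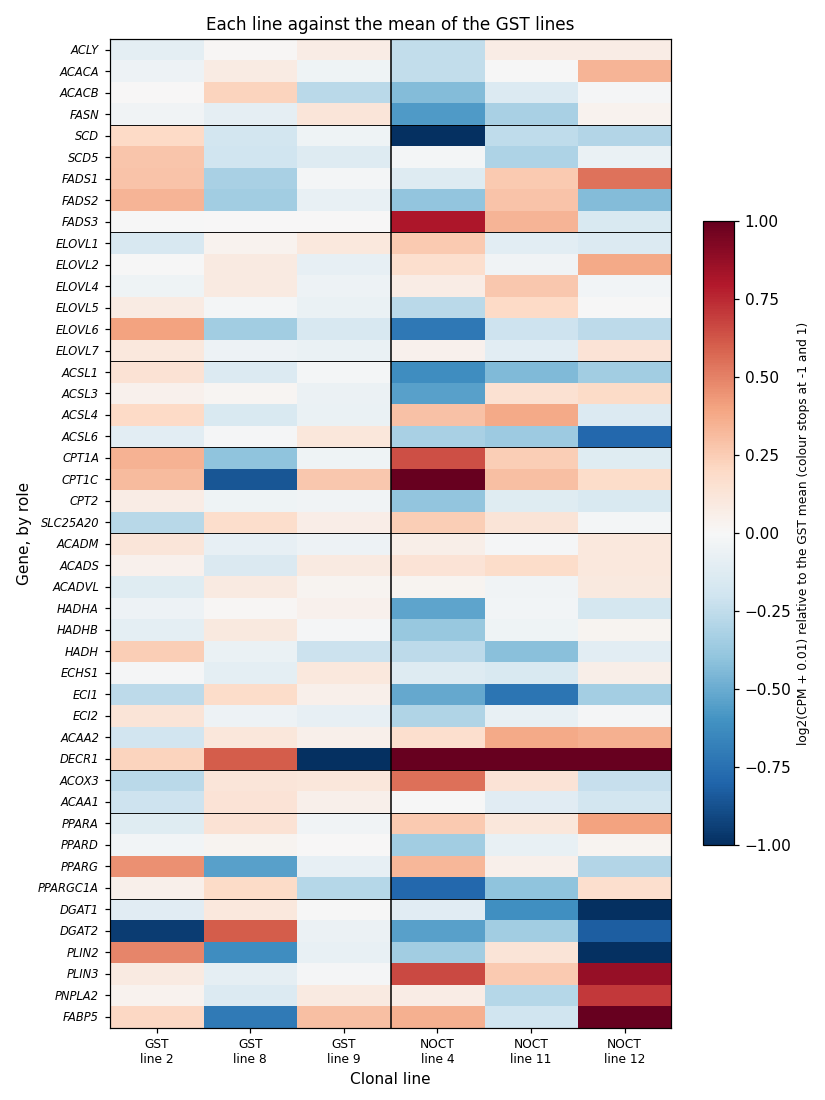
Log2 of CPM (plus 0.01) of each tested gene in each line relative to the mean of the GST lines, with red above and blue below that mean, colour stopping at -1 and 1, and black lines between roles and groups. The column of NOCT line 4 has the most strong colours, and DECR1 is red at the end of the scale in all 3 NOCT columns.

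Neighbouring genes on a chromosome lay on the same side of 0 as several of the fatty acid genes. For each gene and line, the median deviation of up to 50 tested genes on each side was taken. The mean of the NOCT lines minus that of the GST lines exceeded 0.1 in size on the log2 scale for 11 of the 46. On chromosome 4 the neighbourhoods of SCD5, ELOVL6, ACSL1 and HADH lay at -0.27, -0.22, -0.22 and -0.23. On chromosome 2 those of HADHA, HADHB and ACSL3 lay at -0.22, -0.23 and -0.19, and that of ECI1 on chromosome 16 lay at -0.27. Single lines weighed on several of these differences. By line, the median deviation around HADHA was 0.065, 0.16 and 0.15 in GST lines 2, 8 and 9. In NOCT lines 4, 11 and 12 it was -0.38, 0.047 and 0.041. Around SCD5 it was 0.37, -0.048 and 0.097 against -0.14, -0.13 and -0.12. CPT1C on chromosome 19 and PPARA on chromosome 22 lay in neighbourhoods at 0.21 and 0.23. The difference had the sign of the gene's own fold change in 10 of the 11, DGAT1 on chromosome 8 (neighbourhood 0.13) being the other. Around DGAT1 the median deviation was -0.16, -0.0036 and 0.0062 in the GST lines and -0.052, -0.23 and 0.51 in the NOCT lines. These counts were not made over all genes tested, so they cannot be read as a trait of the fatty acid genes. The 11 are also not separate, since HADHA and HADHB share most of their neighbours. With the neighbour level as an offset in the fit, 4 of the 5 genes with an unadjusted p under 0.05 kept it, and these were DECR1, PLIN3, ACAA2 and ACSL1. CPT2 joined them at an unadjusted p of 0.0353, so that 5 genes (10.9%) had such a p against 14.6% of all genes, and none of the 46 passed the adjusted threshold, against 0.214% of all genes.

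Outside the 48 genes, 145 further genes of the same pathways were counted in 9 lists. Of these, 117 were tested and none passed the adjusted threshold. At an unadjusted p under 0.05 there were 19 (16.2%, against 13.9% of all genes), 5 with higher values in the NOCT lines (4.27%, against 7.38%) and 14 with lower values (12.0%, against 6.52%). Among 19 tested genes for the supply and control of synthesis there were none, the smallest p-values being those of NR1H2, MLYCD and PRKAA2. NR1H2, the receptor LXR beta, had a log2 fold change of 0.47 (unadjusted p = 0.0582 by edgeR). Nor were there any among 5 elongation partners, where HACD1, a dehydratase of the elongation cycle, was at 0.36. In mitochondrial fatty acid synthesis there were 2 of 9, where CBR4, a subunit of its ketoacyl reductase, was at -0.59 and NDUFAB1, the acyl carrier protein, at -0.34.

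Among 14 genes of activation and binding, 2 had an unadjusted p under 0.05. ACBD3, an acyl-CoA binding domain protein of the Golgi, was at 0.40 on the log2 scale and ACSF3, the malonyl-CoA synthetase of mitochondria, at 0.42. ACBD3 had 80.0, 80.0 and 74.5 TPM in the GST lines and 114, 99.2 and 115 TPM in the NOCT lines. Of 17 other genes of mitochondrial oxidation, 4 had an unadjusted p under 0.05. ACOT2, a mitochondrial thioesterase that frees fatty acids from coenzyme A, was at 3.14, 2.60 and 2.45 TPM against 5.44, 6.11 and 7.66 TPM. Its groups were far apart, with a log2 fold change of 1.15 ± 0.25 (SE, adjusted p = 0.155 by edgeR), and 0.82 with the neighbour offset. ETFDH, which passes electrons from oxidation to ubiquinone, was at -0.47, and CRAT, the carnitine transferase for acetyl groups, at -0.77.

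DECR2 is the peroxisomal counterpart of DECR1, and its values lay in the opposite direction. It was at 4.66, 6.88 and 8.03 TPM in the GST lines and at 2.80, 3.06 and 4.70 TPM in NOCT lines 4, 11 and 12. GST line 2 and NOCT line 12 were nearly level in TPM. The log2 fold change was -0.96 ± 0.29 (SE, adjusted p = 0.224 by edgeR) and -0.57 with the neighbour offset, its neighbourhood on chromosome 16 lying at -0.37. SCP2, a peroxisomal thiolase and sterol carrier, was at 0.24, and these were the 2 of 13 tested peroxisomal genes with an unadjusted p under 0.05.

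Glyceride synthesis had a median log2 fold change of -0.18 over 14 tested genes, the lowest of the 9 lists, and 2 genes with such a p, CDS1, which makes CDP-diacylglycerol, at -0.35 and LPIN1, a phosphatidate phosphatase, at -0.65. Among 12 tested genes of droplets and lipolysis, LDAH, a hydrolase of lipid droplets, had the smallest p of all 145 genes. It was at 13.7, 17.9 and 15.8 TPM against 8.94, 11.2 and 8.04 TPM, with all NOCT lines below all GST lines. Its log2 fold change was -0.83 ± 0.16 (SE, adjusted p = 0.114 by edgeR), and -0.57 with the neighbour offset. LIPA, the lysosomal lipase, and HILPDA, an inhibitor of lipolysis, were at -0.32 and -0.45, which made 3 of 12. Of the partners and targets of PPAR receptors it was 4 of 14. PPARGC1B, a coactivator, was at -0.44, RXRA, the partner receptor, at -0.48, and PDK4, a kinase induced in fasting, at 0.73, with 2.92, 1.79 and 1.93 TPM against 3.79, 4.00 and 3.96 TPM. The genes THRSP, FABP1, MOGAT1 and CIDEB had no read in any line.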

How the data were processed

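RNA-seq reads per gene were measured in 6 clonal lines. The authors deposited whole-number counts per gene, 1 table for each line, a table of TPM values, and their own DESeq2 comparison. That comparison holds the authors' mean normalised signal over the lines, log2 fold changes, the Wald score and p-values, per the file headers. The submitters' processing notes name FastQC 0.10.1, MultiQC 1.0, cutadapt 1.8.1, Trimmomatic 0.33, STAR 2.5.2b, HTSeq 0.6.1p1, DESeq2 1.16.1 and GRCh38. The strand setting of the counting is not given in the sources used here. Of all reads in the deposited count tables, 42.9% to 47.1% fell in rows that name no gene and were left out.

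Counts of all genes were filtered with filterByExpr, scaled with TMM and compared with the quasi-likelihood test of edgeR 4.0.16 in R 4.3.3, with Benjamini-Hochberg adjustment over 17261 genes and a threshold of 0.05. The 95% intervals use the t distribution of that fit. For the neighbour offset, up to 50 tested genes to either side with 1 CPM or more on average gave a median deviation for each line. The other alternatives were other scalings (spike-in totals among them) and filters, DESeq2 1.42.0, voom and TPM fits in limma 3.58.1, a robust fit, and leaving out each line. The TPM table repeats 49 rows, which were used once. Gene positions came from GENCODE release 29 and promoters from RefSeq.

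The members, the pathway and marker lists and the tests were chosen with earlier results of these data known. Full values were given for members with an unadjusted p under 0.05, for those without overlap between groups whose fold change reached 0.3 in either direction on the log2 scale, and for the most and least abundant member of each role. Of each pathway list, any gene past the threshold would be named, and otherwise at most the 3 with the smallest p-values.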

Additional observations from a re-analysis of the deposited data

How the results depend on the processing

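Of 17 alternatives, all planned, none turned the direction of DECR1, PLIN3, ACAA2, ACSL1, ECI1 or SCD. The number of the 46 genes called was 0, but 2 without a low-count filter (DECR1 and SCD), 1 with DESeq2 (DECR1), and 0 to 1 when a line was left out (DECR1 without NOCT line 12). Over all genes, 10 were called, against 22 with spike-in totals, 888 without a filter, 508 with DESeq2, 16 with voom, 37 with the neighbour offset and 0 to 893 without 1 line (893 without NOCT line 12, and 0 without GST line 9, where 1420 passed 0.05 before adjustment). The DECR1 log2 fold change was lowest, 1.16, on the log2(TPM + 1) scale, which compresses low genes. The median over the 46 genes was 0.13 with spike-in totals, which moved the median of all genes to 0.15. It was 0.058 on both TPM scales and -0.069 to -0.0030 without 1 line. A single direction in every alternative was kept by 28 of the 46 genes. Signs turned for the other 18, none of them called. With spike-in totals, ACLY was at 0.12, SCD5 at 0.017, FADS2 at 0.0094, ELOVL5 at 0.14, ACSL3 at 0.12, HADHB at 0.027, ECHS1 at 0.077, ECI2 at 0.024, ACAA1 at 0.052 and PPARD at 0.025. On the log2(TPM + 1) and log2(TPM + 0.1) scales, ACLY was at 0.053 on both, ELOVL5 at 0.062 and 0.063, ACSL3 at 0.022 on both and ECHS1 at 0.016 on both. With the neighbour offset, SCD5 was at 0.16, ELOVL7 at -0.018, ACSL3 at 0.13, ACADM at -0.020 and HADHB at 0.096. Without 1 line, the ranges were -0.12 to 0.17 for ACACA, -0.084 to 0.067 for ACLY, -0.22 to 0.035 for SCD5, -0.42 to 0.063 for FADS2, -0.13 to 0.093 for ELOVL1, -0.14 to 0.098 for ELOVL5, -0.028 to 0.085 for ELOVL7, -0.16 to 0.17 for ACSL3, -0.030 to 0.067 for ACADVL, -0.039 to 0.36 for ACOX3, -0.16 to 0.35 for PPARG and -0.094 to 0.42 for PNPLA2. The cause of these turns was not tested. No paired analysis was possible because the groups share no replicate numbers. Genes with few reads, such as DECR1, ACSL5 and CD36, are limited by counting error as well as by 3 clones in each group.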

Other observations

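The pattern of DECR1, with at most 6 reads in each GST line and at least 15 in each NOCT line, was counted over all genes tested, with limits taken from the values of DECR1 itself. It was found for 6 genes, and these were RIN3, DECR1, ADM2, KRT17, FAM162B and LEKR1. KRT17, a keratin, had 3, 5 and 5 reads in the GST lines and 2808, 896 and 26 reads in NOCT lines 4, 11 and 12. RIN3 had 5, 1 and 0 reads against 50, 29 and 24. The mirrored pattern, with the same limits, was also found for 6 genes, namely CDH10, KCNT2, CSMD3, ZNF320, PRR16 and DOK6. CDH10, a cadherin, had 37, 22 and 17 reads in the GST lines and none in the NOCT lines. None of these 12 genes passed the adjusted threshold in edgeR's quasi-likelihood test, their adjusted p-values lying between 0.0563 and 0.123. The DOK6 reads in the GST lines ranged from 34 to 308, so clones of 1 group also differed widely in such genes.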
